A study of Mus musculus with 2 samples.

Results

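The genes described here are 9 mouse genes of zinc handling: the metallothionein genes Mt1 and Mt2, the metal-sensing transcription factor gene Mtf1, the zinc exporter genes Slc30a1 and Slc30a4, and the zinc importer genes Slc39a1, Slc39a6, Slc39a10 and Slc39a14. They were taken by name, through their Entrez identifiers, from a table of 24440 features, of which 13056 carry such an identifier. All 9 were found, and all 9 reached 1 FPKM (fragments per kilobase of transcript, scaled to library size) in at least 1 library. They were chosen with their values in this comparison known, so their levels and differences are a description and carry no test.

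The RNA was from CD4+ T cells, cultured for 48 h so as to drive T helper 17 (Th17) differentiation. The T cells were wild type, of strain C57BL/6 and from mice 6 to 8 weeks old. In the WT-APC library the cells had grown with WT antigen presenting cells (APCs). In the OX40L-TG-APC library the APCs carried a transgene for OX40L, the ligand of the costimulatory receptor OX40. Each condition had 1 library, so every statement compares these 2 libraries and none has a replicate check. The sources used here do not name the promoter that drives the transgene, the kind of APC or the number of mice pooled.

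Metallothioneins are small proteins rich in cysteine that bind zinc and copper ions and so buffer them inside the cell. When free zinc rises, the factor MTF1, encoded by Mtf1, binds short metal response elements in the promoters of metallothionein genes and of the exporter gene Slc30a1 and raises their transcription. Proteins of the Slc30 (ZnT) family move zinc out of the cytosol, across the plasma membrane or into organelles, and proteins of the Slc39 (ZIP) family bring it into the cytosol. Metallothionein genes also respond to glucocorticoids and to cell stress.

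The promoter windows of both metallothionein genes and of both Slc30 members are shown because they hold the letters of the metal response element, whose known core was searched as TGCACNC and TGCGCNC on both strands. The sequences are from RefSeq on GRCm38.p6, run 5′ to 3′ on the strand of the gene, and cover 250 bases before and 50 bases from the annotated start. Capitals mark the matches, which did not overlap each other.
Mt1: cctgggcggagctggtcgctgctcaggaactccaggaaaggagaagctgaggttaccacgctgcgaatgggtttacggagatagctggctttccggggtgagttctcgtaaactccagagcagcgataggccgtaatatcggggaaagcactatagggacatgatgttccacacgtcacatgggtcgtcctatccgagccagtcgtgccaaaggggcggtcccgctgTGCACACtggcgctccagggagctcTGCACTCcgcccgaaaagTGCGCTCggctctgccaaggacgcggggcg
Mt2: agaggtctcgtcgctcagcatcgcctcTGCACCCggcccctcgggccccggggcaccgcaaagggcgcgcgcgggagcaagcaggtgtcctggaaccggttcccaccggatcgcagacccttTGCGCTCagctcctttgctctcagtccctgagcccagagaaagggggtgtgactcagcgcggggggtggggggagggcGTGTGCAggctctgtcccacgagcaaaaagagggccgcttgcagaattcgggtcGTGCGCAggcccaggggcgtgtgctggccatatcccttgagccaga
Slc30a1: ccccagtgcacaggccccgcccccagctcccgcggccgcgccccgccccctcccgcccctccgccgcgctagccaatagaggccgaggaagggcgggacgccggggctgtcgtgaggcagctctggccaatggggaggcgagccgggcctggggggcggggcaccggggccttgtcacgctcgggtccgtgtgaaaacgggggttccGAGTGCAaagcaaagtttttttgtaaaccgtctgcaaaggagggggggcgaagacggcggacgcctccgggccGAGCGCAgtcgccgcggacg
Slc30a4: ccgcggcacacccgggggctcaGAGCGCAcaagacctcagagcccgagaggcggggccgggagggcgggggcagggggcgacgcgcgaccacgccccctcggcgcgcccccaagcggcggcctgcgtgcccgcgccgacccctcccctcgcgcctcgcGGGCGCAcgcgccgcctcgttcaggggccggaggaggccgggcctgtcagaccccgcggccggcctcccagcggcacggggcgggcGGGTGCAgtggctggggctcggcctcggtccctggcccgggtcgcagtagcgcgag
The windows lie at chr8:94178839-94179138 (plus strand) for Mt1, chr8:94172368-94172667 (plus strand) for Mt2, chr1:191906531-191906830 (plus strand) for Slc30a1 and chr2:122702614-122702913 (minus strand) for Slc30a4.

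Mt1 had 3 matches, whose first bases lie at positions -23, 3 and 21, counted from the annotated start as position 1 with no position 0. Mt2 had 4 matches, at positions -223, -128, -50 and 5. Slc30a4 also had 3 matches, at -228, -92 and -6, and Slc30a1 had 2, at -43 and 31. The windows of Mtf1 and Slc39a1 and both windows of Slc39a10 held none, which says only that these letters are not in them. Of 32841 promoter windows in the RefSeq table, 25.7% held at least 1 match, 7.12% at least 2, 1.97% at least 3 and 0.518% at least 4. Windows are given for 7 of the 9 genes. Members' windows on chromosome 18, where Slc39a6 lies, were left out, and none is given for Slc39a14.

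The letters continued past the annotated starts of the metallothionein genes, beyond the bases shown. In the first 200 bases of the annotated transcripts, Mt1 held 4 matches and Mt2 held 3, counting those shown above that lie after the start, and 0.597% of 58616 protein-coding transcripts held at least 3. The letters TATAAA, the core of a TATA box, first occurred at base 129 of the Mt1 transcript and base 90 of the Mt2 transcript. Both positions lie past the end of the windows shown. The windows thus follow the annotated starts, and which starts these cells used was not tested. All these matches are descriptions of letters and not of sites bound in these cells. Among 8304 genes that differed by less than 2-fold and had a window, 3.83% held at least 3 matches in a window. The share was 2.86% of the 175 higher genes with a window and 3.81% of the 105 lower ones.

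**Figure D1:**
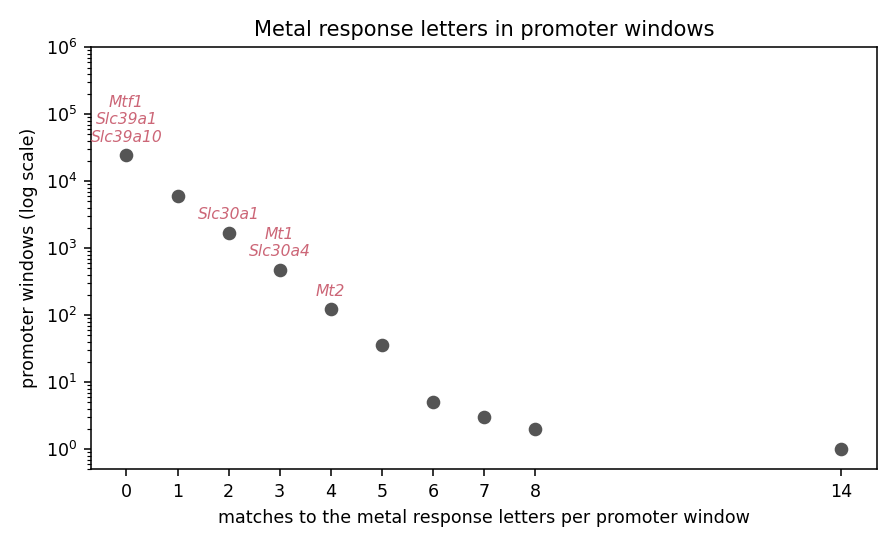
Number of promoter windows (log scale) by the number of metal response letters they hold, for 32841 windows. Names mark the members' windows: Mt2 stands at 4 matches, Mt1 and Slc30a4 at 3, Slc30a1 at 2, and Mtf1, Slc39a1 and Slc39a10 at 0.

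Both metallothionein genes were far higher in the OX40L-TG-APC library. Mt1 (Entrez 17748, chromosome 8, 94179088 to 94180327) stood at 127 FPKM in the WT-APC library and 505 FPKM in the OX40L-TG-APC library. Mt2 (Entrez 17750, chromosome 8, 94172617 to 94173567) stood at 27.2 FPKM and 139.9 FPKM in the same order. The FPKM ratio was 3.96 for Mt1, with a 95% exact interval for counting error of 3.73 to 4.21, and 5.15 for Mt2, with an interval of 4.51 to 5.92. These rest on about 1296 and 5889 fragments for Mt1 and 249 and 1474 for Mt2. The intervals leave out any difference between cultures or animals.

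Among the 10645 genes that reached 1 FPKM in some library, Mt2 had the 22nd and Mt1 the 31st highest log2 change, computed as log2 of the ratio of FPKM + 1. That change was 1.98 for Mt1 and 2.32 for Mt2. Of the 9 members 2 were at least 2-fold higher on this scale and 0 were at least 2-fold lower, whereas 2.26% of the 10645 genes were at least 2-fold higher and 1.32% at least 2-fold lower. Since the members were chosen on this comparison, nothing is read from that contrast. The median log2 change of all these genes was 0.11, so changes near that value are near the centre of the table. The shares of 2.26% and 1.32% also stand beside each 2-fold count of a gene list below. A count of 0 in a short list is near them. In the authors' deposited table, which lists genes past their own thresholds, Mt1 had a log2 ratio of 2.02 and Mt2 of 2.40, both at a p-value of 5e-05, which sets 1 library against the other. The other members were not listed there.

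Ordered by level, Mt1 went from rank 450 of the 10645 genes in the WT-APC library to rank 102, and Mt2 from rank 2909 to rank 472. Mt1 exceeded Mt2 in FPKM 4.69-fold in the WT-APC library and 3.61-fold in the other. Together they made up 155 FPKM and 645 FPKM, which was 55.1% and 83.0% of the summed FPKM of the 9 members. Both transcripts are short (549 bases and 511 bases), so their FPKM depend more than those of long genes on how the software corrects for fragment length. That correction bears on comparisons between genes more than on ratios between libraries.

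The transcripts of the pair have little exact sequence in common. The longest stretch that the annotated Mt1 and Mt2 transcripts share without a mismatch is 20 bases, and 0 other annotated genes share a stretch of 50 bases with either. The sources used here give no read length. The other genes of the family, Mt3 and Mt4, were looked for by symbol, and no values were found for them.

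**Figure D2:**
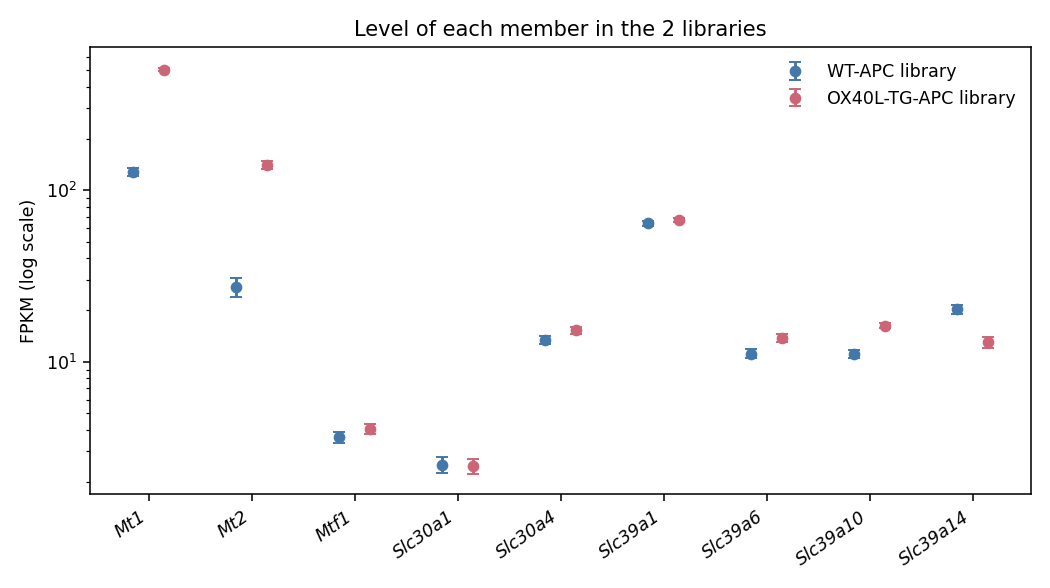
FPKM (log scale) of each member in the WT-APC library (blue) and the OX40L-TG-APC library (red). Bars are 95% exact Poisson intervals for counting error. Mt1 (127 and 505 FPKM) and Mt2 (27.2 and 139.9 FPKM) stand apart, and Slc39a14 (20.2 and 13.0 FPKM) is the member with the lowest ratio.

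The genes measured around the metallothionein pair are given for their position. Mt2 and Mt1 lie next to each other on chromosome 8, and 6 other genes of at least 1 FPKM have loci within 250 kb of them. These were picked by position after the values of the pair were seen. Their log2 changes ran from -0.09 (Ogfod1) to 0.35 (Nudt21), and 0 of the 6 reached 2-fold in either direction. At 2-fold, 2.26% of all 10645 genes were higher and 1.32% lower, so nothing is read from that count of 0. The nearest on either side were Bbs2, at 1.59 and 1.85 FPKM, and the nucleoporin gene Nup93, at 20.4 and 23.9 FPKM, WT-APC first.

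**Figure D3:**
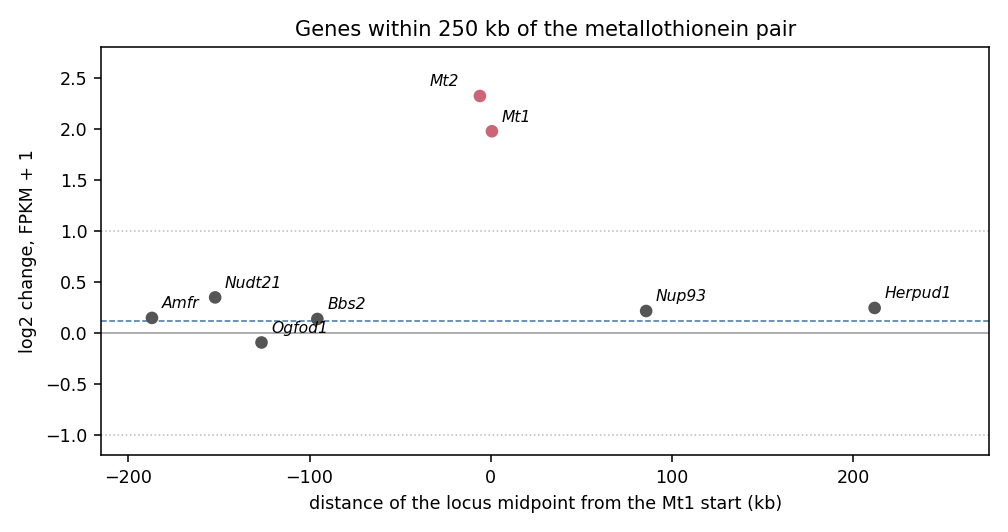
Log2 change (OX40L-TG-APC over WT-APC, FPKM + 1) of the genes within 250 kb of the metallothionein pair, against the distance of the locus midpoint from the Mt1 start in kb. The dashed line is the median of all genes (0.11) and dotted lines are 2-fold. Mt1 (1.98) and Mt2 (2.32) lie above the upper dotted line and the 6 neighbours between -0.09 and 0.35.

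Mtf1 and its best known transporter target differed little. Mtf1 (Entrez 17764, chromosome 4, 124802548 to 124850730) stood at 3.63 FPKM in the WT-APC library and 4.05 FPKM in the OX40L-TG-APC library, a ratio of 1.12 (1.01 to 1.23). Its log2 change of 0.13 was close to the median of all genes and turned to -0.02 when the totals of both libraries were set equal. The locus printed for Mtf1 overlaps 2 protein-coding genes. Slc30a1 (Entrez 22782, chromosome 1, 191894071 to 191913247), which encodes the zinc exporter ZnT1 of the plasma membrane, stood at 2.51 FPKM and 2.46 FPKM. Its ratio was 0.983, and the interval for counting error, 0.847 to 1.14, included 1. That interval, like the others, leaves out any difference between cultures or animals. Mt1, Mt2 and Slc30a1, all known targets of MTF1, had different ratios in these libraries. The counting intervals of Mt1 and Mt2 lay wholly above that of Slc30a1. The activity of MTF1 and the level of free zinc were not tested.

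Slc30a4 (Entrez 22785, chromosome 2, 122681238 to 122702663) encodes ZnT4, a transporter that loads zinc into vesicles. Its level was 13.3 FPKM with WT APCs and 15.2 FPKM with OX40L-TG APCs, a ratio of 1.14 (1.07 to 1.22). The log2 change was 0.18, and it was 0.06 with the median ratio of well-expressed genes set to 1 and 0.01 with equal totals. Of the 10 genes of the Slc30 family, 6 were measured here. These comprise both members, the secretory pathway transporter genes Slc30a5, Slc30a6 and Slc30a7, and Slc30a9, whose product is linked to mitochondria. None of the 6 reached 2-fold in either direction. Slc30a9 had the highest log2 change of the family, 0.41, at 28.0 and 37.7 FPKM. Slc30a5 stood at 27.7 and 28.5 FPKM, Slc30a6 at 6.57 and 7.93 FPKM and Slc30a7 at 7.58 and 8.39 FPKM, WT-APC first.

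The importers among the members differed in both directions, each by less than 2-fold. Slc39a10 (Entrez 227059, chromosome 1, 46807543 to 46853509) was the highest-changing importer among the members, at 11.1 FPKM in the WT-APC library and 16.2 FPKM in the OX40L-TG-APC library. It encodes the plasma membrane importer ZIP10, and its ratio was 1.46 (1.37 to 1.56). Slc39a6 (Entrez 106957, chromosome 18, 24579880 to 24603817) encodes ZIP6, the closest relative of ZIP10, with which it can pair. It stood at 11.1 FPKM and 13.8 FPKM, a ratio of 1.24 (1.14 to 1.34). The pair had near-equal levels in the WT-APC library, with overlapping intervals, and in the OX40L-TG-APC library Slc39a10 stood above Slc39a6, with intervals that did not overlap. The log2 changes of Slc39a10 (0.51) and Slc39a6 (0.29) came to 0.34 and 0.12 with equal totals.

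Slc39a14 (Entrez 213053, chromosome 14, 70303466 to 70351424) was the member that was lower by the most. It encodes ZIP14, which carries zinc, iron and manganese, and stood at 20.2 FPKM with WT APCs and 13.0 FPKM with OX40L-TG APCs. The FPKM ratio was 0.643 (0.585 to 0.707), a log2 change of -0.60. Its close relative Slc39a8, which encodes ZIP8 and is no member, had a similar ratio of 0.623 (0.573 to 0.676), from 16.5 to 10.3 FPKM. With the threshold set at 1.5-fold, chosen after seeing the data, Slc39a14 was the 1 member called lower, and the share of all genes called lower was then 3.38%. The share of genes called higher at 1.5-fold was 7.21%, and the members called higher were again 2, Mt1 and Mt2.

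Slc39a1 (Entrez 30791, chromosome 3, 90248191 to 90253612), which encodes the widely expressed plasma membrane importer ZIP1, had the highest level of the transporters in both libraries. It stood at 64.0 FPKM and 67.3 FPKM, WT-APC first, a ratio of 1.05 (1.01 to 1.10). The log2 change of 0.07 became -0.05 once the median ratio was 1 and -0.11 once totals were equal, so no direction is given for it.

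Of the 14 genes of the Slc39 family 12 were measured and 11 had at least 1 FPKM in either library. None of the 11 reached 2-fold on the log2 scale of FPKM + 1, and their median change was 0.04, beside 0.11 for all genes. The nearest to it was Slc39a4, which encodes the importer that takes up dietary zinc in the intestine. It stood at 8.02 FPKM in the WT-APC library and 15.1 FPKM in the OX40L-TG-APC library, a ratio of 1.89 (1.70 to 2.09). The genes of the organelle transporters differed less. Slc39a7, which encodes ZIP7 of the endoplasmic reticulum, stood at 51.9 and 53.5 FPKM, at a printed locus that overlaps 5 protein-coding genes. Slc39a9 stood at 5.47 and 5.11 FPKM, Slc39a11 at 4.81 and 5.78 FPKM, and Slc39a13 at 6.61 and 5.72 FPKM. Slc39a3 stood at 5.70 and 5.50 FPKM. Slc39a2 was listed at 0 in the WT-APC library and at 0.245 FPKM in the other, from about 0 and 16 fragments. The lower counting limit of its ratio was 3.36. It was below 1 FPKM in both libraries and falls outside the 11.

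Summed over the genes measured, the Slc30 family came to 85.7 FPKM in the WT-APC library and 100.3 FPKM in the OX40L-TG-APC library. The Slc39 family came to 205 FPKM and 211 FPKM. The sum of both metallothionein genes passed from below the Slc39 sum to well above it.

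**Figure D4:**
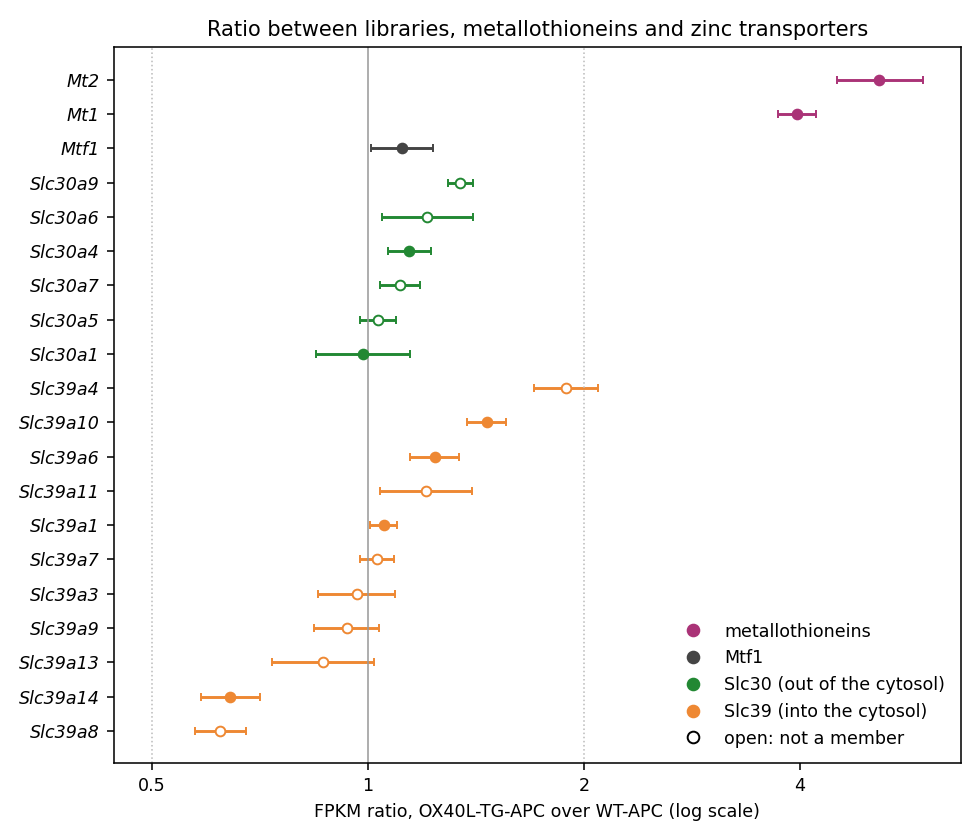
FPKM ratio between the libraries (OX40L-TG-APC over WT-APC, log scale) for Mt1, Mt2, Mtf1 and each Slc30 and Slc39 gene with at least 1 FPKM in either library. Filled points are members and open points are other genes of the families. Bars are 95% exact intervals for counting error and dotted lines are 2-fold. Mt1 (3.96) and Mt2 (5.15) lie beyond 2-fold, and the transporters run from 0.623 (Slc39a8) to 1.89 (Slc39a4).

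In the WT-APC library the members ranked by level as Mt1, Slc39a1, Mt2, Slc39a14, Slc30a4, Slc39a6, Slc39a10, Mtf1 and Slc30a1. Only the neighbours Slc39a6 and Slc39a10 had overlapping counting intervals. In the OX40L-TG-APC library the order was Mt1, Mt2, Slc39a1, Slc39a10, Slc30a4, Slc39a6, Slc39a14, Mtf1 and Slc30a1. There the neighbours Slc39a10 and Slc30a4, and the neighbours Slc39a6 and Slc39a14, had overlapping intervals. Slc39a14 stood at place 4 in the first order and place 7 in the second, and Slc39a10 at place 7 and place 4. Mtf1 and Slc30a1 were the lowest of the 9 in both.

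**Figure D5:**
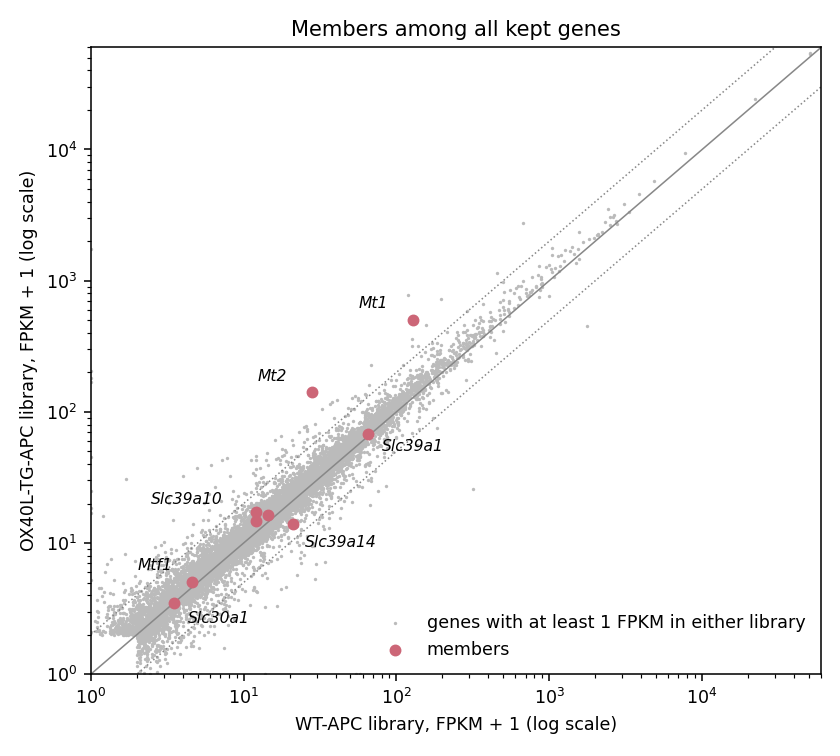
FPKM + 1 of the 10645 genes kept (grey), WT-APC library on the horizontal axis and OX40L-TG-APC library on the vertical axis, both log scales. Members are red, the solid line is equality and dotted lines are 2-fold. Mt1 (127 and 505 FPKM) and Mt2 (27.2 and 139.9 FPKM) lie outside the dotted lines and the other 7 members lie between them.

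Other reported targets of MTF1 differed among themselves. Of 5 listed, 4 had at least 1 FPKM in either library, 1 was at least 2-fold higher and 0 were lower, with a median log2 change of 0.40. The higher one was Ndrg1, a gene that hypoxia also induces, at 31.8 FPKM and 105 FPKM, WT-APC first, a ratio of 3.29 (3.14 to 3.45). Csrp1, a LIM domain protein gene, stood at 88.9 and 134 FPKM, and Selenoh, a selenoprotein gene, at 188 and 219 FPKM. Gclc, the gene of the catalytic subunit that starts glutathione synthesis, stood at 14.1 and 11.0 FPKM.

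Genes of other metals were also looked at. None of 12 copper genes and none of 13 iron genes reached 2-fold, with median log2 changes of 0.26 and 0.14, beside 0.11 for all genes. At 2-fold, 2.26% of all genes were higher and 1.32% lower, so nothing is read from these counts. The copper chaperone gene Cox17 stood at 146 and 203 FPKM and the superoxide dismutase gene Sod1 at 108 and 144 FPKM. The ferritin genes Ftl1 and Fth1 stood at 365 and 402 FPKM and at 188 and 240 FPKM. The highest ratios among them were 1.82 for the copper genes (Atp7b) and 1.55 for the iron genes (Tfrc).

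Genes of the heat shock and glucocorticoid responses, which share inducers with metallothioneins, were listed too. Of 8 heat shock genes that reached 1 FPKM none reached 2-fold, and the median log2 change was 0.26. Hspa1a and Hspa1b were below 1 FPKM in both libraries and fall outside that count. Hspa1b read 0.407 FPKM with WT APCs and 0.952 FPKM with OX40L-TG APCs, from about 28 and 75 fragments. That is 2.34-fold, with counting limits of 1.49 and 3.74. For Hspa1a, 0.310 FPKM became 0.617 FPKM (about 23 and 52 fragments), or 1.99-fold with limits of 1.18 and 3.37. After the pseudocount of 1, Hspa1b changed by 0.47 in log2 and Hspa1a by 0.30. Hspa8 stood at 311 and 318 FPKM and Hsp90aa1 at 78.2 and 101 FPKM. Of 7 glucocorticoid-responsive genes 1 was at least 2-fold higher and 1 was at least 2-fold lower. Their median log2 change was 0.37. The higher one was Ddit4, which stress and hypoxia also induce (109 and 227 FPKM), and the lower one was the kinase gene Sgk1 (22.3 and 6.66 FPKM). Tsc22d3, which encodes the glucocorticoid-induced protein GILZ, stood at 18.9 and 24.8 FPKM.

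By a likeness rule, the 3 protein-coding genes closest in log2 change were named for each called member, among genes whose WT-APC level was within 2-fold of its own. With 2 libraries such likeness is 1 ratio and no more. Of 899 candidates the closest to Mt1 were Vim (195 and 720 FPKM), the intermediate filament gene vimentin, the glucose transporter gene Slc2a3 (67.4 and 228 FPKM) and Anxa2 (155 and 461 FPKM). All 3 had a smaller log2 change (1.88, 1.74 and 1.56) than Mt1 (1.98). Of 3868 candidates the closest to Mt2 were Ier3 (15.1 and 60.4 FPKM), Ndrg1 and Hilpda (35.6 and 114 FPKM), and all 3 had a smaller log2 change than Mt2.

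The estimated depth was 26145000 fragments (WT-APC library) and 30000000 fragments (OX40L-TG-APC library). Tnfsf4, the gene of OX40L, stood at 2.70 and 2.14 FPKM, with a ratio of 0.790 (0.604 to 1.04), and Tnfrsf4, the gene of OX40, at 144 and 267 FPKM. None of 6 T cell markers reached 2-fold, and they differed in both directions. Cd28 was lower (217 and 142 FPKM, a ratio of 0.653), as was Cd3e (98.0 and 86.5 FPKM). Lck (278 and 306 FPKM) and Cd3g (277 and 304 FPKM) had the highest levels. Both, and also Cd3d (233 and 240 FPKM) and Cd4 (201 and 246 FPKM), stood higher in the OX40L-TG-APC library. Most lists of markers of other cells had lower sums in the OX40L-TG-APC library, and MHC class II genes were well expressed in both. The 7 B cell markers summed to 41.8 and 17.6 FPKM, with Cd79a, Fcrla and Blnk at least 2-fold lower and Cd79b and Blnk highest by their mean over both libraries. By the plain FPKM ratio, without the pseudocount, Ms4a1 (0.442), Pax5 (0.428) and Cd22 (0.489) were also more than 2-fold lower. Cd79b (0.540) was not. The 5 MHC class II genes summed to 357 and 228 FPKM, with H2-Aa, H2-Eb1 and Ciita at least 2-fold lower. Cd74 (172 and 89.2 FPKM) and H2-Ab1 were highest, and H2-Ab1 was not lower (92.7 and 98.9 FPKM). The 7 monocyte and macrophage markers summed to 12.3 and 5.85 FPKM, with Lyz2 and Tyrobp at least 2-fold lower. Lyz2 and Cd68 were highest by their mean over both libraries, and Cd68 was not lower (2.25 and 2.44 FPKM). The 6 dendritic cell markers summed to 18.1 and 8.22 FPKM, with Flt3 and Cd86 at least 2-fold lower. Only these 2 reached 1 FPKM, and Cd86 (13.4 and 6.07 FPKM) made up most of both sums. Zbtb46 stood at 0.788 and 0.934 FPKM, and Siglech, near the floor, at 0.0511 and 0 FPKM. The 4 CD8 T cell and natural killer markers summed to 7.26 and 6.43 FPKM, with Cd8b1 and Cd8a highest. The 4 erythroid markers summed to 33.9 and 69.9 FPKM, higher in the OX40L-TG-APC library, with Hbb-bs at least 2-fold higher (23.4 and 52.7 FPKM) and Hba-a1 at 10.1 and 16.4 FPKM. The part of any of these cells in the levels of the members was not tested. In such bulk RNA a change in the number of expressing cells and a change in RNA per cell cannot be told apart.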

How the data were processed

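RNA of 2 mouse T cell cultures was sequenced from TruSeq libraries, per the labels. The authors deposited FPKM values for each feature, and the submitters' processing notes name TopHat2, Cuffdiff and the build mm9. Tool versions, the annotation and the use of strand are not given in the sources used here. The authors' deposited comparison has a log2 ratio and a p-value for 398 genes, per the file headers. Symbols came from an NCBI RefSeq table of GRCm38.p6, which held 13030 of 13056 Entrez identifiers. The printed locus overlapped the GRCm38 gene for 99.7% of them, so the coordinates, left as deposited, follow GRCm38 and not mm9.

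Depth was estimated from the steps of low FPKM values, which reflect whole fragments, with GENCODE M21 transcript lengths. Of 149 single-transcript genes under 0.3 FPKM, 63.8% had whole-number fragment ratios within 0.2% at a step ratio of 0.872, against a median of 2.01% over the ratios tried. A common length correction of 160 bases put 81.5% of 227 low values within 0.15 of a whole fragment. The estimator was tested on simulated data whose depths and length correction were set close to those found here, with a fixed length per gene. How it performs at other depths or with several transcripts per gene was not tested. Fragments of genes with several transcripts use the median length and are rough. Intervals (95%) are exact Poisson for levels and exact Clopper-Pearson for ratios.

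With 1 library per condition no test or standard error was computed. Change was log2 of the FPKM ratio after adding a pseudocount of 1, which understates the ratio of low genes. A gene was called at 2-fold among genes that reached 1 FPKM in some library. The members and the 16 gene lists were chosen with earlier results of these data known, and some listed markers are not reported here. Named genes were the members, the other measured genes of their families, the called genes and the 2 genes of highest mean FPKM of each other list, and the 3 likest genes of each called member. Gclc, Atp7b, Tfrc, Siglech, Zbtb46, Hspa1a, Hspa1b, Cd3d, Cd3e, Cd4, Cd28, Ms4a1, Pax5 and Cd22 were added after their values were seen. So were the neighbours of the pair and the genes of OX40 and OX40L. Alternatives were pseudocounts of 0.1 and 5, no filter on low values, the median ratio of genes with at least 10 FPKM set to 1, equal totals, and a 1.5-fold threshold. Python 3.11.15, pandas 2.3.3, numpy 2.4.6 and scipy 1.17.1 were used.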

Additional observations from a re-analysis of the deposited data

How the results depend on the processing

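Mt1 and Mt2 were at least 2-fold higher under each other pseudocount, filter, scaling and threshold run. Their log2 changes ran from 1.80 to 1.99 for Mt1 and from 2.15 to 2.36 for Mt2, beside 2.02 and 2.40 in the authors' deposited table, and 2 members were called higher in each. No member was called lower at 2-fold in any. With the 1.5-fold threshold, added after seeing the data, 1 member, Slc39a14, was called lower, and 767 genes were higher and 360 lower. Over all genes, 241 were higher and 141 lower. A pseudocount of 0.1 gave 405 higher and 251 lower, and a pseudocount of 5 gave 101 and 39. Setting the median ratio of well-expressed genes to 1 gave 188 and 175, and equal totals gave 168 and 187. These scalings lower each log2 ratio by 0.13 and 0.18, and the median of all genes moved from 0.11 to 0.00 and -0.05. Slc39a1 changed sign under both, and Mtf1 with equal totals. The log2 change of Slc39a14 ran from -0.77 to -0.49, that of Slc39a10 from 0.34 to 0.54 and that of Slc30a1 from -0.14 to -0.01. No paired analysis was possible because each condition had 1 library. With 1 library per condition no library could be left out, and how far cultures or animals vary is not known. The fewest fragments behind a member's level were about 249, for Mt2 in the WT-APC library.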
